A study of Mus musculus with 16 samples.

Results

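Whole kidneys of wild-type (WT) mice that received cisplatin with nicotinamide riboside (NR) were compared with whole kidneys of WT mice that received cisplatin without a precursor. The comparison uses 8 of the 16 RNA-seq libraries of the study, 4 per group, taken by their group labels and over all genes. Earlier results of these data were known when the comparison was chosen. The other 8 libraries are 4 PBS controls and 4 with cisplatin and nicotinamide mononucleotide (NMN), and they serve here only as a reference level and for a test of NR against NMN. NR and NMN were injected ahead of cisplatin, and every cisplatin group was collected 3 days after the drug. All 16 libraries share the WT genotype. The sources used here do not give the dose, injection schedule, strain, sex or age. No label ties a library to a separate animal, so each p-value reflects only how far these libraries spread, which may be technical.

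Cisplatin is a platinum drug that enters proximal tubule cells through transporters, crosslinks DNA and damages the tubule. NR is a form of vitamin B3 that the NR kinases, such as the product of Nmrk1, phosphorylate to NMN, which adenylyl transferases then join to ATP to give NAD. NAD carries electrons for glycolysis, the citric acid cycle and fatty acid oxidation, and it is consumed by sirtuins, PARPs and the CD38 family. The proximal tubule reabsorbs most of the filtrate, lives on fatty acid oxidation, and makes NAD from tryptophan as well as from vitamins. When it is injured it loses its transporters and turns on a set of genes, among them Havcr1 and Lcn2, that serve as markers of acute kidney injury.

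The deposited values are TPM, transcript levels corrected for gene length and scaled to a fixed total per library; the read depth behind them is unknown. Changes are given as log2 of (TPM + 1), NR minus cisplatin, with the standard error (SE) of the limma fit and a p-value adjusted over all 12960 tested genes. The words rose and fell are kept for genes with an adjusted p under 0.05. Mitochondrially encoded mRNAs made up 15.6% to 17.6% of the listed TPM in the cisplatin libraries and 22.1% to 30.3% in the NR libraries. The leading principal component of the 8 libraries held 64.4% of the variance and separated the groups, and the next held 7.7% and set cisplatin library 1 apart. Cisplatin library 1 also held the highest podocyte and endothelial levels of its group. The sum of 4 defining adipocyte genes was uneven in both groups, highest in cisplatin library 1 and NR library 3. Kidney markers were present in all 8 libraries: the thick ascending limb gene Umod measured 221 to 613 TPM with cisplatin and 233 to 653 TPM with NR, and the water channel gene Aqp2 measured 333 to 413 and 168 to 265 TPM.

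Of 12960 tested genes, 1870 rose (14.4%) and 4174 fell (32.2%) with NR relative to cisplatin, and 6044 (46.6%) changed in all. At least 2-fold changes were made up of 808 rises (6.23%) and 1112 falls (8.58%). The 2 groups did not overlap for 1651 genes (12.7%) with NR higher and 3767 (29.1%) with NR lower. TPM sets a fixed total, and the median change of all genes was -0.20, which median-of-ratios scaling brought to -0.02. Under that scaling 2752 genes rose (21.2%) and 2904 fell (22.4%), so that rises made up 48.7% of the calls in place of 30.9%. Falls were therefore more frequent than rises in TPM and about as frequent after rescaling. Counts under both scalings are given below for some lists, and lists without a second count may differ too. Cell cycle genes, for example, went from 1 rise and 16 falls to 3 and 14 with rescaling, and peroxisomal genes from 10 rises to 13.

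**Figure D1:**
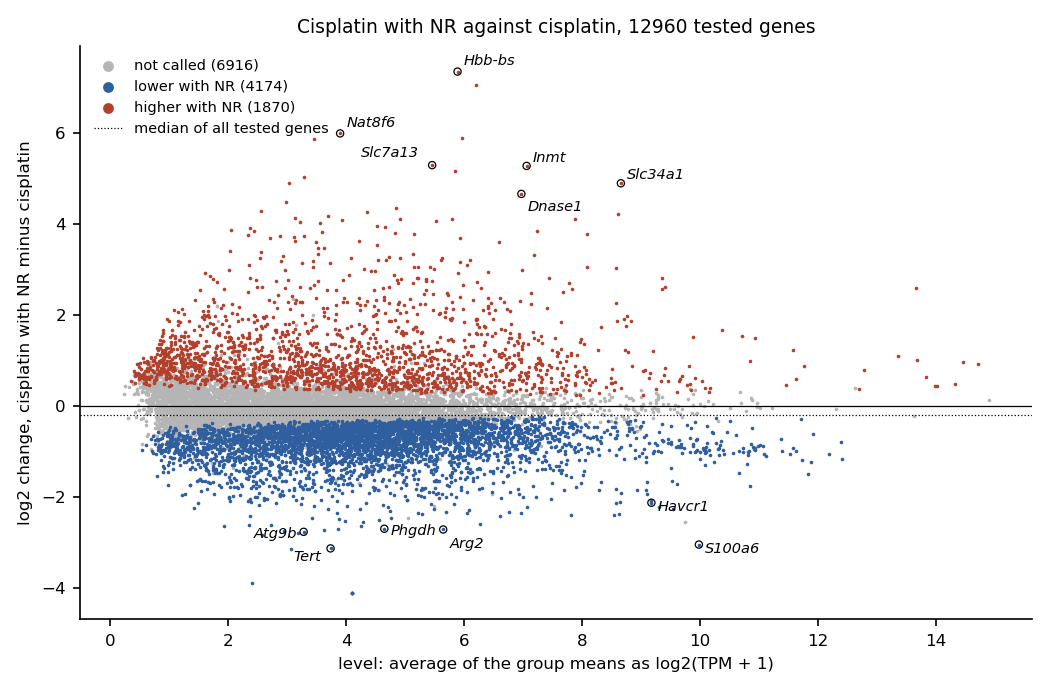
Each point is 1 of 12960 tested genes, with the mean level of the 2 groups on the x axis as log2(TPM + 1) and the log2 change with NR on the y axis. Red points (1870) rose, blue points (4174) fell and grey points were not called; the largest rises reached a log2 change of 7.34 (Hbb-bs) and the largest labelled fall was -3.13 (Tert).

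Kidney transporters and enzymes, and globin genes of red blood cells, gave the largest rises. Inmt, which encodes an N-methyltransferase of small amines (chromosome 6 from 55170626 to 55175043 in GRCm38), measured 15.2, 18.3, 24.8 and 24.4 TPM in cisplatin libraries 1 to 4 and 672, 897, 882 and 846 TPM in NR libraries 1 to 4. All NR libraries lay far above all cisplatin libraries, and PBS libraries held 1248 to 1338 TPM. The log2 change was 5.27 (SE 0.14, adjusted p = 7.24e-15). Dnase1, the gene of a secreted enzyme that cuts free DNA, measured 28.6, 22.4, 24.9 and 20.3 TPM with cisplatin and 536, 719.7, 574 and 688 TPM with NR (log2 change 4.65, SE 0.17, adjusted p = 5.06e-13). Slc7a13, a transporter gene of the last proximal segment, went from 6.17 ± 2.55 to 269 ± 54.03 TPM (SD, n = 4), and Slc22a22, a carrier of prostaglandins, from 0.68 ± 0.44 to 36.1 ± 6.94 TPM. Nat8f6, Ugt2b38, Slc22a28, Slc34a1 and 4 globin genes completed the 12 largest rises. In all 12 the groups did not overlap, and for Nat8f6, Ugt2b38, Slc22a28 and the globins close copies make the split of reads uncertain.

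The 12 largest falls held no single pathway but several genes that are nearly silent in the healthy kidney. Tert, the catalytic subunit of telomerase (chromosome 13 from 73626911 to 73649843 in GRCm38), measured 45.2, 28.7, 46.4 and 29.3 TPM with cisplatin and 6.41, 4.21, 2.1 and 1.8 TPM with NR (log2 change -3.13, SE 0.39, adjusted p = 5.47e-06). In PBS libraries it held 0.05 to 0.97 TPM. S100a6, a calcium-binding protein gene, measured 2883, 2475, 3529.6 and 2707 TPM with cisplatin and 278, 406, 424 and 302 TPM with NR, against 12.4 to 34.01 TPM with PBS. The S100a6 values of NR lay between the other 2 groups and overlapped neither. Arg2, which encodes the mitochondrial arginase, fell from 127 ± 32.6 to 18.6 ± 4.98 TPM, and Phgdh, the entry enzyme of serine synthesis, from 62.8 ± 6.37 to 8.88 ± 1.71 TPM. Lrg1, a secreted glycoprotein gene, fell from 190.5 ± 52.2 to 30.5 ± 7.8 TPM, and Fst, which encodes the activin-binding protein follistatin, from 11.8 ± 4.29 to 1.04 ± 0.45 TPM. Others among the 12 were Sh2d5, the autophagy gene Atg9b, the neuropeptide gene Calcb, the decoy receptor gene Tnfrsf23 and the Bcl-2 family gene Bcl2l15, with log2 changes from -2.84 to -2.64. The annotated span of Sh2d5 shares 10898 bases on the same strand with Kif17, so the split of reads is uncertain. Kif17 averaged 0.85 TPM with cisplatin and 0.28 TPM with NR.

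Genes of the proximal tubule were higher with NR. Of 28 genes of segments 1 and 2, 26 rose and 0 fell (27 rose after median-of-ratios scaling), with a median change of 2.19 against -0.20 for all genes. Slc34a1, the sodium-phosphate cotransporter of the brush border, measured 67.5, 64.2, 88.3 and 74.3 TPM with cisplatin and 2088, 2459, 2072 and 2166 TPM with NR. The NR libraries lay close together and below the 3086 to 3448 TPM of PBS. Its log2 change was 4.89 (SE 0.10, adjusted p = 6.35e-16). Slc22a8 and Slc22a6, the organic anion transporters OAT3 and OAT1, measured 5.24 to 6.72 and 13.1 to 18.8 TPM with cisplatin and 111 to 137 and 184 to 245 TPM with NR. The glucose transporter gene Slc5a2 (SGLT2) rose from 29.9 ± 2.53 to 234 ± 20.6 TPM, the lactate transporter gene Slc5a12 from 1.34 ± 0.66 to 36.5 ± 4.73 TPM, and the dicarboxylate transporter gene Slc13a3 from 21.5 ± 1.35 to 207 ± 24.4 TPM. Against PBS, 9 of the 28 genes were lower with NR and 0 higher; over all tested genes that comparison called 1.21% lower and 8.79% higher. These are bulk values, in which fewer cells of a type and less RNA per cell cannot be told apart; this holds for every cell type below.

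In the last segment of the proximal tubule 16 of 20 genes rose and 0 fell (median 1.5). Kap, an androgen-responsive gene and among the most abundant transcripts of the mouse kidney, measured 3965, 6820.5, 4391 and 6344 TPM with cisplatin and 29763, 33473, 35458 and 28087 TPM with NR, and PBS libraries held 42424 to 50351 TPM. Acy3, an aminoacylase gene, rose from 186 to 306 TPM with cisplatin to 1470.03 to 1873 TPM, and Cyp4b1, a cytochrome P450 gene, from 275 ± 18.1 to 1692 ± 192 TPM. The anion transporter genes Slc22a30 and Slc22a7 rose as well (log2 changes 4.17 and 3.33). More broadly, 18 of 24 organic anion and cation transporters and 16 of 26 cytochrome P450 genes rose, and 2 of each fell.

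Of 22 transcription factors of the nephron 4 rose and 6 fell (5 and 3 after median-of-ratios scaling), shares near the 14.4% and 32.2% of all genes. Hnf4a, the nuclear receptor that drives proximal tubule genes, measured 35.3, 50.9, 28.2 and 43.4 TPM with cisplatin and 124, 130.5, 138 and 152 TPM with NR, so that the lowest NR library held more than any cisplatin library (log2 change 1.79, SE 0.15, adjusted p = 6.21e-08). Maf and Lhx1 also rose, from 7.95 ± 1.37 and 1.57 ± 0.38 to 28.1 ± 2.6 and 5.46 ± 1.82 TPM. Pax8, a lineage factor of the developing and regenerating nephron, fell from 90.5 ± 14.02 to 41.05 ± 7.17 TPM, and the epithelial factor gene Elf3 from 36.2 ± 1.79 to 16.6 ± 3.48 TPM.

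Genes that carry or process cisplatin itself were among those that differed. Slc22a2, the basolateral cation transporter OCT2 through which cisplatin enters the cell, measured 25.4, 47.4, 32.8 and 46 TPM with cisplatin and 141, 123, 152 and 147 TPM with NR, against 162 to 232 TPM with PBS. Slc47a1, the apical exporter MATE1, measured 73.9, 67.3, 63.2 and 73.8 and 208, 199, 199 and 230.4 TPM. Both genes rose without overlap (log2 changes 1.90 and 1.58, adjusted p = 8.43e-08 and 2.29e-10). Of the peptidases that process glutathione conjugates of the drug, Ggt1 rose from 235 ± 52.8 to 786 ± 52.5 TPM and Dpep1 from 4.38 ± 1.59 to 63.2 ± 5.35 TPM. Going the other way were the efflux pump gene Abcb1b (24.5 ± 4.36 to 8.94 ± 1.47 TPM), the copper transporter gene Slc31a2 (23.1 ± 5.41 to 12.7 ± 1.62 TPM) and the glutathione transferase gene Gstp1 (773 ± 63.4 to 522 ± 54.5 TPM). In total 9 of 16 genes of this list rose and 5 fell, or 9 and 3 after median-of-ratios scaling; the fall of Abcc4 (log2 change -0.60) was lost there (adjusted p = 0.0625), without cisplatin libraries 1 and 3 (0.0949) and without NR libraries 3 and 4 (0.102). The kidneys were taken 3 days after the drug, and the levels at the time of injection were not measured.

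**Figure D2:**
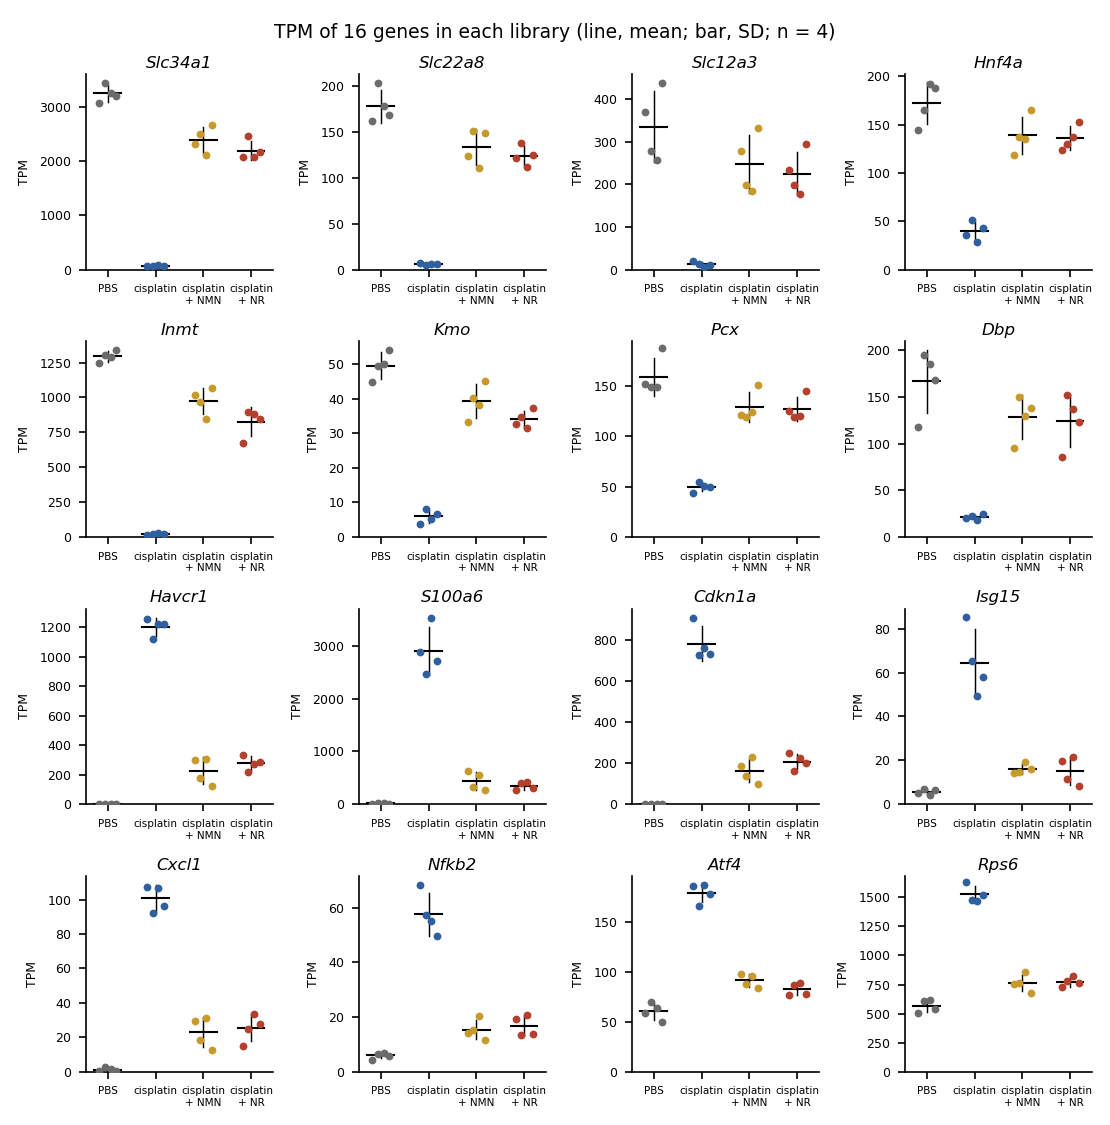
TPM of 16 genes in each of the 16 libraries, by group, with the group mean as a line and the SD as a bar (n = 4 per group, linear axes from 0). In each panel the 4 NR libraries lie on 1 side of the 4 cisplatin libraries, above them for the upper 8 genes and below them for the lower 8.

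Of the distal convoluted tubule genes 13 of 15 rose and 0 fell (median 1.26). Slc12a3, the thiazide-sensitive salt cotransporter, measured 19.4, 12.7, 6.79 and 11.5 TPM with cisplatin and 234, 198, 177 and 294 TPM with NR, all far above the cisplatin libraries and partly within the 257 to 438 TPM of PBS. Its log2 change was 4.11 (SE 0.26, adjusted p = 1.8e-09). Kl, the gene of the anti-ageing hormone Klotho, rose from 11.4 ± 3.37 to 101 ± 22.6 TPM, and Pvalb, a calcium buffer of the early convoluted tubule, was listed at 0 in 3 cisplatin libraries and at 2.11 TPM in the other and measured 13.2, 19.1, 24.6 and 16.9 TPM with NR. In the thick ascending limb 8 of 14 rose and 0 fell, among them Egf (6, 10.8, 5.8 and 11.1 TPM with cisplatin and 97.5, 85, 125 and 224 TPM with NR) and the claudin gene Cldn10 (21.1 ± 10.1 to 87.8 ± 7.08 TPM). Without cisplatin libraries 1 and 3, or without NR libraries 3 and 4, the rises in this list numbered 5. Umod, which encodes uromodulin, did not follow: it measured 251, 613, 221 and 517 TPM with cisplatin and 233, 293, 412 and 653 TPM with NR, a spread in which neither group stood apart (log2 change 0.02, SE 0.45, adjusted p = 0.982).

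In the collecting duct, of 15 genes of intercalated cells, which secrete acid or base, 10 rose and 0 fell (13 and 0 with median-of-ratios scaling). The ammonia channel gene Rhcg measured 9.82, 15.8, 10.4 and 15.9 TPM with cisplatin and 42.5, 61.7, 48.6 and 44.96 TPM with NR, and the proton pump gene Atp6v1b1 rose from 23.9 ± 2.42 to 59.7 ± 5.56 TPM. Insrr, which encodes an alkali-sensing receptor, and the oxoglutarate receptor gene Oxgr1 rose from 1.14 ± 0.48 and 1.18 ± 0.28 to 8.7 ± 2.63 and 6.45 ± 1.67 TPM. Of 14 principal cell genes 5 rose and 3 fell (8 and 2 after median-of-ratios scaling). Aqp2 fell, with 333, 405, 413 and 384 TPM in the cisplatin libraries and 179.5, 265, 208 and 168 TPM in the NR libraries, a change towards the 145 to 192 TPM of PBS. The sodium channel subunit gene Scnn1g and the glucocorticoid-inactivating enzyme gene Hsd11b2 rose from 9.25 ± 1.19 and 68.4 ± 8.71 to 14.9 ± 1.98 and 111 ± 18.6 TPM.

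Genes of NAD synthesis were mostly higher with NR, but not the salvage enzyme. Of 16 tested genes 11 rose and 2 fell under both scalings (median 0.87). The tested genes of the route from tryptophan named here all rose: Kmo, kynurenine monooxygenase, measured 3.86, 7.96, 5.15 and 6.79 TPM with cisplatin and 32.6, 34.6, 31.6 and 37.3 TPM with NR, without overlap (log2 change 2.37, SE 0.16, adjusted p = 1.76e-09). Its span shares 5255 bases with Fh1 on the opposite strand (means of 109 and 115 TPM), and the sources used here do not say whether reads were counted by strand; the same uncertainty holds for Slc5a2, Insrr, Bst1, Pcx, Acsf2, Bak1, Timp3, Fosl1, Plvap and Alas2, which overlap an opposite-strand neighbour at length, and over shorter stretches for others such as Slc34a1, Sirt3 and Junb. Afmid, Haao and Qprt of the same route rose from 11.6 ± 1.01, 30.5 ± 12.1 and 16.6 ± 4.78 to 34.7 ± 1.78, 128 ± 15.2 and 37.1 ± 5.14 TPM, and Kynu was listed at 0 in 3 cisplatin libraries and at 1.84 to 3.02 TPM in the NR libraries. The proximal tubule makes NAD by this route, and its transporters rose in the same libraries. Whether these changes are linked was not tested. Nmrk1, the kinase for NR itself, measured 28.5, 33.1, 26.9 and 28.9 TPM with cisplatin and 36.5, 53.8, 45.3 and 43.8 TPM with NR, against 45.1 to 60.5 TPM with PBS (log2 change 0.59, SE 0.13, adjusted p = 0.00141). The other NR kinase gene, Nmrk2, was listed at 0 in every NR library and was too low to be tested. Nampt, which makes NMN from nicotinamide, measured 31.3, 35.5, 24.7 and 37.7 TPM with cisplatin and 28.6, 26.3, 30.9 and 36.1 TPM with NR; the groups overlapped (log2 change -0.07, SE 0.16, adjusted p = 0.736), and the sign turned positive with median-of-ratios scaling (0.13). Of the 2 NAD kinases the cytosolic Nadk fell from 123 ± 14.2 to 76.7 ± 7.3 TPM while the mitochondrial Nadk2 rose from 8.25 ± 0.48 to 17.2 ± 1.22 TPM. Nadsyn1, the amidating last step from nicotinic acid or tryptophan, rose from 6.68 ± 2.76 to 14.3 ± 1.001 TPM. Pnp, a phosphorylase that can split NR, fell from 61.96 ± 10.8 to 34.4 ± 15.01 TPM with overlapping groups; its annotated span shares 8758 bases on the same strand with its close copy Pnp2, so the split of reads is uncertain, and the call was lost without cisplatin libraries 1 and 3 (adjusted p = 0.0735).

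Of 31 genes that take up precursors, consume NAD or dispose of nicotinamide 7 rose and 11 fell; the share of falls and the median of -0.18 were close to the 32.2% and -0.20 of all genes. Slc29a1 and Slc29a3, nucleoside transporters of the family that carries NR into cells, rose from 10.96 ± 2.37 and 6.55 ± 0.9 to 25.8 ± 4.41 and 16.9 ± 4.002 TPM, and Enpp1, an ectoenzyme that cleaves nucleotides, from 2.02 ± 0.3 to 5.63 ± 1.61 TPM. Nt5e, which encodes the ectonucleotidase CD73 that turns extracellular NMN into NR, fell from 37.6 ± 4.81 to 19.8 ± 1.11 TPM, a level within the PBS range of 15.9 to 21.4 TPM. Bst1, an NAD-cleaving enzyme gene of the CD38 family, measured 25.1, 20.3, 19.8 and 24.9 TPM with cisplatin and 3.75, 4.47, 5.13 and 3.33 TPM with NR (log2 change -2.19, SE 0.32, adjusted p = 2.7e-05). Cd38 itself was low throughout, at 0.58 to 1.86 TPM with cisplatin and 1.04 to 3.02 TPM with NR (adjusted p = 0.46). Acmsd, which diverts the tryptophan route away from NAD, rose from 1.09 ± 0.16 to 35.6 ± 6.79 TPM. Sirt3, the main deacetylase of mitochondria, rose from 24.7 ± 5.66 to 53.1 ± 9.8 TPM. Sirt1 and Parp1 measured 6.99 ± 0.97 and 9.51 ± 0.95 TPM with NR beside 7.53 ± 1.16 and 10.5 ± 0.49 TPM with cisplatin and were not called (adjusted p = 0.672 and 0.523); both signs turned positive with median-of-ratios scaling (0.095 and 0.057). Nnmt, which methylates nicotinamide for excretion, measured 4.71 ± 2.31 and 1.91 ± 1.03 TPM; its adjusted p of 0.0447 passed the threshold, but not after median-of-ratios scaling (0.0965) or when any 1 of 6 of the 8 compared libraries was left out, without NR libraries 3 and 4 (0.135) or without cisplatin libraries 1 and 3 (0.191).

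Of the 13 mitochondrially encoded mRNAs 11 rose and 0 fell; with quantile normalization 6 rose and 1 fell, and with these mRNAs removed they have no value. ND4, a complex I subunit, measured 6570.2, 7006, 7678 and 7378 TPM with cisplatin and 19117, 13791, 11967 and 16926 TPM with NR (adjusted p = 7.72e-06; 0.0514 with quantile normalization). Of 40 nuclear genes of oxidative phosphorylation 22 rose and 0 fell (median 0.30), or 32 with median-of-ratios scaling. The count of rises was 12 without cisplatin libraries 1 and 3 and 11 without NR libraries 3 and 4. Ndufs1 of complex I rose from 39.2 ± 7.41 to 84.4 ± 5.66 TPM and Sdha of complex II from 109 ± 7.16 to 198 ± 18.4 TPM. In the citric acid cycle and pyruvate list 15 of 21 rose and 1 fell: pyruvate carboxylase (Pcx) measured 43.9, 54.3, 50.2 and 49.8 TPM with cisplatin and 125, 119, 120.5 and 145 TPM with NR. The gene that fell was Pdk4, the kinase that shuts pyruvate dehydrogenase, at 70.9, 61.1, 54.8 and 56.3 TPM with cisplatin and 27.4, 19.5, 18.8 and 22.3 TPM with NR, still above the 2.94 to 5.69 TPM of PBS. Of 15 regulators of mitochondrial biogenesis 3 rose and 4 fell (5 and 2 after median-of-ratios scaling), with a median of 0.0. These shares were near the 14.4% and 32.2% of all genes. Those that rose included Ppargc1a, which encodes the coactivator PGC-1alpha (2.61 ± 0.43 to 5.19 ± 1.17 TPM), and Esrrg (4.78 ± 0.85 to 8.96 ± 2.94 TPM).

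Of 21 genes of glycolysis and gluconeogenesis 7 rose, 7 fell and 7 were not called (9 rose and 5 fell with median-of-ratios scaling). The gluconeogenic genes G6pc, Fbp1 and Pck1 rose from 3.71 ± 0.8, 86.8 ± 19.6 and 219.9 ± 57.7 to 88 ± 10.6, 555 ± 46.7 and 849 ± 79.4 TPM. Hexokinase 2 (Hk2), which opens glycolysis, measured 4.13, 3.39, 4.27 and 5.79 TPM with cisplatin and 0.82, 0.57, 0.69 and 0.74 TPM with NR, and the glucose transporter gene Slc2a1 and the pyruvate kinase gene Pkm fell from 62.2 ± 6.22 and 205 ± 12.9 to 27.7 ± 4.24 and 116 ± 5.68 TPM. Among peroxisomal genes 10 of 21 rose and 1 fell, with catalase (Cat) at 111 ± 12.8 and 312 ± 36.1 TPM, the D-amino acid oxidase gene Dao at 22.1 ± 7.33 and 189.6 ± 9.81 TPM, and the hydroxyacid oxidase gene Hao2 at 8.77 ± 2.21 and 91.96 ± 17.3 TPM. Of 22 sterol synthesis genes 7 rose, including Hmgcs1 and Cyp51 (42.1 ± 5.75 and 8.05 ± 0.57 to 129 ± 18.7 and 45.5 ± 13.8 TPM), and 1 fell, Msmo1 (48.4 ± 7.88 to 20.03 ± 2.47 TPM), which acts later than Cyp51 in the pathway.

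Genes of fatty acid oxidation mostly rose, and a few genes of lipid and drug metabolism exceeded the PBS level. Of 36 genes in the list 25 rose and 4 fell (30 and 0 after median-of-ratios scaling), led by the acyl-CoA synthetase genes Acsm1 (10.6 ± 1.5 to 78.4 ± 8.49 TPM) and Acsm2 (71.5 ± 9.77 to 1018 ± 345 TPM). Over all 12960 genes, 8 were higher with NR than with both cisplatin and PBS (0.0617%) and 0 were lower than both. The comparisons share the NR libraries, so a high NR value enters both. Cyp4a14, a fatty acid omega-hydroxylase gene, measured 16.4, 21.6, 11.3 and 24.1 TPM with cisplatin, 89.4, 37.2, 57.7 and 65.02 TPM with NR, 13.04 to 24.9 TPM with PBS and 27.1 to 45.5 TPM with NMN. The NR libraries lay above all cisplatin and PBS libraries and overlapped those with NMN (adjusted p = 7.37e-05 against cisplatin and 0.000295 against PBS). NR library 1 was the highest.

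The related Cyp4a10 rose from 163 ± 17.6 to 239.7 ± 50.1 TPM beside 162 ± 30.6 TPM with PBS, and the fatty acid activating gene Acsf2 from 8.59 ± 2.1 to 12.9 ± 2.09 TPM beside 5.72 ± 1.15 TPM. The glucuronosyltransferase gene Ugt2b34 and the glutathione transferase gene Gsta2 rose from 5.33 ± 2.79 and 315 ± 11.3 to 12.1 ± 2.49 and 456 ± 48.1 TPM beside 6.31 ± 0.95 and 282 ± 64.6 TPM. Ago3 and B3gnt8, also among the 8, averaged 3.52 and 3.42 TPM with NR. Cyp4a14 passed under each of the alternatives run, whereas the number of such genes was 3 without NR libraries 3 and 4 and ranged from 6 to 9 when single NR libraries were left out. The rise of Acsf2 over cisplatin was lost without NR library 1 or 4 or cisplatin library 2, 3 or 4 (adjusted p from 0.0577 to 0.084), and without NR libraries 3 and 4 those of Cyp4a10, Gsta2 and Acsf2 were lost (0.0719, 0.0721 and 0.133), as was that of Cyp4a10 without cisplatin libraries 1 and 3 (0.0682). Cyp4a10, Cyp4a14, Gsta2 and Ugt2b34 have near-identical relatives, between which the authors' counting may have split or lost reads. Against NMN, the log2 difference of Cyp4a14 was 0.63 (95% interval 0.06 to 1.20) and did not pass after adjustment (adjusted p = 1).

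**Figure D3:**
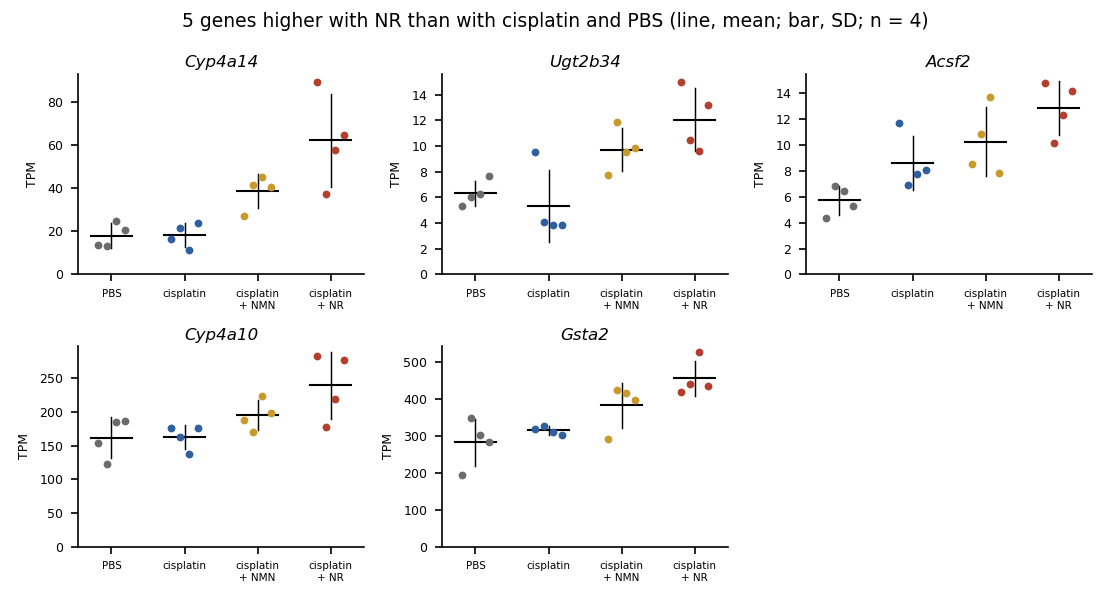
TPM of 5 genes that were higher with NR than with both cisplatin and PBS, in each library (line, mean; bar, SD; n = 4 per group; axes from 0). The NR libraries of Cyp4a14 span 37.2 to 89.4 TPM, above all cisplatin and PBS libraries, and those of Acsf2 overlap the cisplatin group.

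All 28 markers of tubule injury in the list fell with NR (26 after median-of-ratios scaling), with a median change of -1.74 against -0.20 for all genes, and 23 of them remained above PBS. Havcr1, the kidney injury molecule KIM-1, measured 1256, 1117, 1224 and 1219 TPM with cisplatin and 337, 217, 272 and 284 TPM with NR, against 0.13 to 1.61 TPM with PBS. Lcn2, which encodes the secreted siderophore carrier NGAL, measured 1279, 1391, 1364 and 1656 and 405, 496, 411 and 411 TPM in the same order. In neither gene did the groups overlap, and every NR library stayed far above the highest PBS library. Keratins of the injured tubule fell alike: Krt20 measured 1006, 788, 805 and 813 TPM with cisplatin and 179, 122, 180.3 and 167 TPM with NR (log2 change -2.40, SE 0.22, adjusted p = 1.5e-07), and Krt8 and Krt18 fell from 592 ± 23.6 and 241 ± 14.4 to 165 ± 31.3 and 47.5 ± 7.03 TPM. Vim, the intermediate filament gene of dedifferentiated cells, fell from 172 ± 28.9 to 45.2 ± 6.14 TPM, with PBS at 20.8 to 45.3 TPM. The galectin gene Lgals3 and S100a11 fell from 567 ± 14.6 and 3417 ± 172 to 178 ± 32.1 and 1008 ± 78.6 TPM.

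Targets of p53, the transcription factor that answers DNA damage, fell in 26 of 32 cases and 1 rose (median -1.43); 25 remained above PBS. Cdkn1a, the cell cycle brake p21, measured 909.8, 727, 761 and 734 TPM with cisplatin and 249.7, 160.4, 225 and 199.8 TPM with NR, against 1.13 to 3.33 TPM with PBS (log2 change -1.92, SE 0.24, adjusted p = 6.29e-06). Mdm2, which encodes the p53 ligase and feedback inhibitor, fell from 179 ± 24.2 to 62.3 ± 10.3 TPM and the kinase gene Plk3 from 84.3 ± 7.42 to 21.9 ± 1.62 TPM. Apaf1, the scaffold of the apoptosome, measured 11.8, 10.7, 10.7 and 12.1 TPM with cisplatin and 1.94, 1.51, 1.67 and 1.71 TPM with NR, a level that overlapped the 0.56 to 1.58 TPM of PBS. Sesn1, a stress-responsive target that rose (log2 change 0.49, adjusted p = 0.0363), had overlapping groups and lost the call without NR library 2 (adjusted p = 0.144), and also without NR library 4, cisplatin library 3 or 4, cisplatin libraries 1 and 3 (0.146) or NR libraries 3 and 4 (0.0576).

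Of 28 genes of cell death 16 fell and 0 rose (13 and 3 after median-of-ratios scaling). The executors Bax and Bak1 fell from 355 ± 14.8 and 32.8 ± 3.3 to 126 ± 35.6 and 14.1 ± 3.37 TPM, and the BH3-only gene Pmaip1 (NOXA) from 51.1 ± 10.7 to 12.7 ± 1.54 TPM. Protective members of the same family fell too: Bcl2l1 (BCL-XL) went from 201 ± 11.6 to 104 ± 17.6 TPM and Mcl1 from 85.9 ± 4.41 to 55.01 ± 2.64 TPM. In DNA repair 10 of 30 fell and 0 rose, a share close to the 32.2% of all genes. The largest was Ercc1, part of the nuclease that unhooks crosslinks, with 309, 263, 373 and 202 TPM with cisplatin and 57.3, 50.4, 52.6 and 54.2 TPM with NR; it shares 511 bases with the gene Cd3eap on the opposite strand, which averaged 10.7 and 5.69 TPM. The excision repair gene Ercc5 and the lesion-bypass polymerase gene Polk fell from 24.2 ± 0.96 and 10.6 ± 1.3 to 11.99 ± 0.59 and 5.02 ± 1.08 TPM. Of 29 cell cycle genes 16 fell and 1 rose, including Ccnd1 (cyclin D1, 147 ± 11.1 to 54.3 ± 6.9 TPM), the replication helicase gene Mcm7 (34.1 ± 4.6 to 11.9 ± 0.47 TPM) and the nucleotide reductase gene Rrm2 (10.7 ± 0.46 to 3.57 ± 0.67 TPM).

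**Figure D4:**
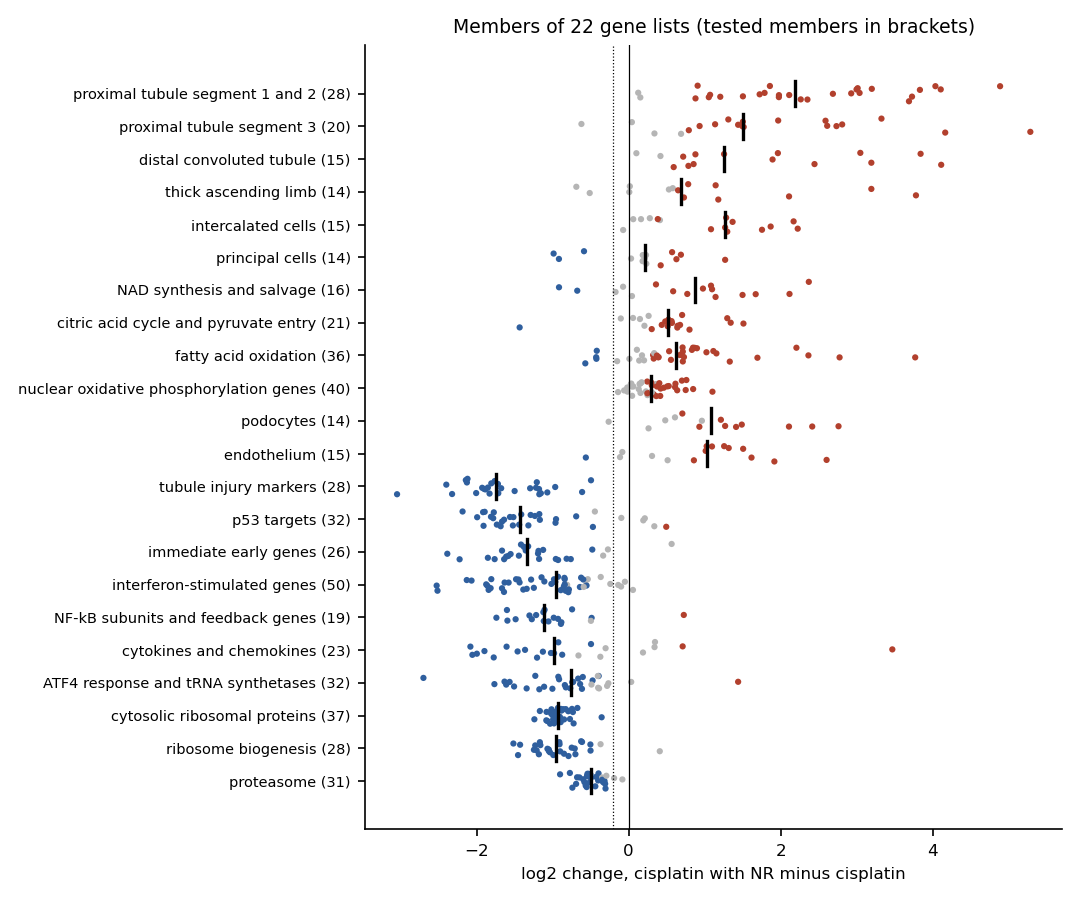
Log2 change with NR of each tested member of 22 gene lists, with the list median as a black bar, 0 as a solid line and the median of all tested genes (-0.20) as a dotted line. Red members rose, blue members fell and grey members were not called; medians run from 2.19 for proximal tubule segments 1 and 2 to -1.74 for tubule injury markers.

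Interferon-stimulated genes fell in 40 of 50 cases and 0 rose (39 fell after median-of-ratios scaling), with a median of -0.95; 10 remained above PBS. These genes are switched on when interferon signalling brings transcription factors to a response element in their promoters. Isg15, a ubiquitin-like modifier, measured 85.2, 65.4, 49.5 and 57.8 TPM with cisplatin and 19.6, 11.7, 21.7 and 8.27 TPM with NR. Oas1a, a sensor of double-stranded RNA, measured 15.6, 11.4, 12.9 and 15.2 and 1.84, 2.57, 2.31 and 2.76 TPM, and Ifit3, which binds foreign RNA with its partners, 44.1, 46.2, 28.6 and 45.2 and 14.3, 6.89, 11.4 and 10.8 TPM. Ifit3 falls outside the rule for named genes and was chosen, as were Cxcl1 and Atf3 below, after its values were seen. In these 3 genes no NR library reached any cisplatin library (log2 changes -2.07, -2.13 and -1.84; adjusted p = 2.22e-06, 3.78e-07 and 2.34e-06). Irf7, the factor that amplifies interferon production, fell from 72.95 ± 9.27 to 20.1 ± 3.25 TPM, Isg20, an RNA-cutting enzyme gene, from 54.8 ± 9.24 to 9.04 ± 3.01 TPM, and Xaf1, an inhibitor of anti-apoptotic proteins, from 36.3 ± 10.1 to 5.63 ± 2.47 TPM.

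The RefSeq promoter windows (GRCm38.p6, 250 bases before to 50 after the start) of 39 of these 50 genes were searched on both strands for the core of the interferon-stimulated response element, GAAA and GAAA with any 2 bases between. The motif was present in 18 of the 39 (46.15%), against 3.64% of the 10031 tested genes with a window and 3.44% of all 32851 windows. Of the 18 genes with a match 16 fell, and of the 21 without one 15 fell. The 100 bases shown for 3 of them, each with matches in capitals on either strand, are those of Isg15 (chr4:156200830-156200929, minus strand), Oas1a (chr5:120907526-120907625, minus strand) and Ifit3 (chr19:34583362-34583461, plus strand), written 5′ to 3′ along the gene.
Isg15: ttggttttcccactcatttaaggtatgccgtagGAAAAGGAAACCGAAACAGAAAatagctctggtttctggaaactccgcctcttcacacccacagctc
Oas1a: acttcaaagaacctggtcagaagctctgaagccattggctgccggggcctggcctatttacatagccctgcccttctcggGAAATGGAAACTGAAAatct
Ifit3: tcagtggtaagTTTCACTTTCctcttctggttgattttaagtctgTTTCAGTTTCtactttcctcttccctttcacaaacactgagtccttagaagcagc
Overlapping matches run together in Isg15 and Oas1a, and Ifit3 carries 2 separate ones in the reverse orientation. A match is a description of the letters and no evidence of binding.

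Sensors of nucleic acids fell in 12 of 18 cases (9 of 18 with median-of-ratios scaling) and 0 rose. The RNA sensor RIG-I (Ddx58) measured 26.1, 22.9, 17.1 and 18.8 TPM with cisplatin and 13.3, 11.03, 11.7 and 9.86 TPM with NR, against 4.09 to 7.17 TPM with PBS. Ifih1 (MDA5) and Dhx58 (LGP2), its relatives, fell from 6.47 ± 1.5 and 4.998 ± 0.97 to 3.18 ± 0.88 and 1.18 ± 0.5 TPM, and the adaptor gene Mavs from 34.9 ± 4.54 to 24.6 ± 2.14 TPM (adjusted p = 0.007; 0.0702 with the mitochondrial mRNAs removed). Tmem173, the gene of the DNA-sensing adaptor STING, measured 17.1, 8.4, 6.59 and 8.56 TPM with cisplatin and 8.51, 6.99, 5.03 and 6.74 TPM with NR; the groups overlapped and the difference was not called (adjusted p = 0.233). Mb21d1, which encodes the DNA sensor cGAS, was too low to be tested, as were Tnf and Il6.

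NF-kB, the main switch of inflammatory genes, was lower in 17 of 19 subunit and feedback genes, and 1 rose. Nfkb2 measured 68.5, 57.2, 55.2 and 49.7 TPM with cisplatin and 19.1, 13.4, 20.6 and 13.8 TPM with NR (log2 change -1.74, SE 0.18, adjusted p = 5.9e-07), and Rela, Bcl3 and the feedback inhibitor gene Tnfaip3 (A20) fell from 68.7 ± 9.05, 25.2 ± 3.28 and 11.3 ± 2.31 to 28.2 ± 7.31, 7.71 ± 1.39 and 3.38 ± 0.57 TPM. The member that rose was Sod2, the superoxide dismutase of mitochondria, which is also abundant in healthy tubules (157 ± 16.2 to 259.9 ± 6.83 TPM, with 282 to 333 TPM in PBS). Among cytokines and chemokines 15 of 23 fell and 2 rose. The neutrophil attractant Cxcl1 measured 107, 92.1, 107 and 96.3 TPM with cisplatin and 15.1, 24.8, 33.6 and 27.99 TPM with NR, against 0.25 to 2.51 TPM with PBS. Its neighbour Cxcl2 measured 42.5, 20.5, 23.7 and 27.6 and 3.75, 4.97, 6.57 and 8.57 TPM, and the groups overlapped in neither gene. The chemokines Cxcl16, Ccl20 and Ccl28 and the cytokine Clcf1 fell from 80.98 ± 3.68, 7.64 ± 1.71, 12.1 ± 4.31 and 60.9 ± 11.2 to 36.5 ± 2.95, 2.72 ± 0.55, 2.07 ± 0.59 and 19.2 ± 2.77 TPM. The 2 that rose were Cxcl12, a chemokine of resting stroma, with 2.06, 2.29, 2.62 and 3.42 TPM in the cisplatin and 18.2, 52.99, 55.1 and 40.8 TPM in the NR libraries, and Il15 (5.58 ± 0.99 to 10.1 ± 3.14 TPM), whose groups overlapped and whose call was lost without NR library 4 (adjusted p = 0.0552) and without NR libraries 3 and 4 (0.211).

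An NF-kB site, GGGA and TTTCC with any base between, was found in the promoter windows of 3 of 15 NF-kB genes and 3 of 15 cytokine genes with a window (20.0% each), against 0.51% of all tested genes with one. All 6 fell, and of the genes without the site 10 of 12 NF-kB genes and 6 of 12 cytokine genes fell as well. The windows of Cxcl1 (chr5:90891129-90891228, plus strand), Cxcl2 (chr5:90903757-90903856, plus strand) and Nfkb2 (chr19:46305680-46305779, plus strand) are shown with the site in capitals.
Cxcl1: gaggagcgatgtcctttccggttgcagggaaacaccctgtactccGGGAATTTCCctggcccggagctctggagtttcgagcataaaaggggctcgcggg
Cxcl2: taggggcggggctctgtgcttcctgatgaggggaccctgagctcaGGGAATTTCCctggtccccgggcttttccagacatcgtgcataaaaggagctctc
Nfkb2: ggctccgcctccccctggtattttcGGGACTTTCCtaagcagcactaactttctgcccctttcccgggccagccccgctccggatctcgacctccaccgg
The site starts 71 bases before the start in Cxcl1, 97 before it in Cxcl2 and 225 before it in Nfkb2. A gene with several windows counted if any held the site, and the first with a match is shown. In Nfkb2 the start of that window lies inside the annotated gene, which spans 46304320 to 46312385. The windows of the genes without these letters may hold other forms of the site, which were not searched.

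Of the complement genes 5 of 14 rose and 1 fell. C3, the central component, measured 91.1, 108, 106 and 128 TPM with cisplatin and 63.9, 27.1, 41.7 and 37 TPM with NR, whereas factor B (Cfb) rose from 108 ± 9.82 to 205 ± 20.8 TPM. Of 23 matrix genes 12 fell and 6 rose. Ctgf, a matricellular growth factor gene, measured 353, 233, 289 and 277 TPM with cisplatin and 48.6, 80.7, 57.7 and 57.9 TPM with NR, which overlapped the 29.97 to 82.2 TPM of PBS. The integrin gene Itgb6 fell from 65.9 ± 9.32 to 27.7 ± 3.31 TPM. The inhibitor gene Timp3 rose from 99.6 ± 24.99 to 257 ± 39.8 TPM, as did the fibrillar collagen gene Col1a1 (7.41, 1.93, 2.99 and 2.03 TPM with cisplatin and 7.65, 10.6, 8.86 and 7.58 TPM with NR), whose call was lost without NR library 2 (adjusted p = 0.0565), cisplatin library 2 or 4, or NR libraries 3 and 4 together (0.0757).

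Of 26 immediate early genes 23 fell and 0 rose, led by Fosl1, an AP-1 subunit that measured 115, 73.4, 81.6 and 80.9 TPM with cisplatin and 20.99, 9.79, 14.9 and 19.8 TPM with NR against 0 to 0.28 TPM with PBS. The phosphatase gene Dusp5 and the factor genes Klf6 and Junb fell from 55.2 ± 6.37, 54.4 ± 7.47 and 122 ± 9.72 to 11.1 ± 2.22, 17.9 ± 2.29 and 39.96 ± 2.93 TPM. In the NRF2 list 19 of 31 fell and 8 rose: the haem oxygenase gene Hmox1 fell from 180.5 ± 18.04 to 61.1 ± 5.14 TPM and the sulfiredoxin gene Srxn1 from 258 ± 32.6 to 98.4 ± 11.2 TPM, while Gpx1, the abundant glutathione peroxidase, rose from 1316 ± 133 to 2606 ± 129 TPM. Of 29 genes of the unfolded protein response and chaperones 8 fell, 5 rose and 16 were not called. Of 17 genes of iron handling and ferroptosis 5 fell, 2 rose and 10 were not called. In both lists the share of falls was near or below the 32.2% of all genes. With median-of-ratios scaling 5 fell and 8 rose in the unfolded protein response list, and 4 fell and 4 rose in the iron list.

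In the ATF4 response, which the cell uses when amino acids run short or proteins misfold, 24 of 32 genes fell and 1 rose (20 fell after median-of-ratios scaling). Atf4 measured 187, 167, 188 and 179 TPM with cisplatin and 76.8, 86.95, 89.3 and 78.3 TPM with NR, and its target Atf3 36.2, 31.4, 28.9 and 26.9 and 12.3, 9.25, 8.25 and 8.12 TPM, each without overlap. Shmt2, the mitochondrial serine hydroxymethyltransferase, rose from 37.8 ± 3.21 to 104 ± 7.19 TPM. An ATF4 site (TGATGNAA) was found in 10 of the 27 genes of this list with a window (37.04%), against 2.79% of all tested genes with one; 7 of the 10 fell, and 12 of the 17 without it. It lies 110 bases before a start of Atf3 (chr1:191183389-191183488, minus strand), here in capitals and in the reverse orientation. That start lies inside the annotated gene, which spans 191170296 to 191218039.
Atf3: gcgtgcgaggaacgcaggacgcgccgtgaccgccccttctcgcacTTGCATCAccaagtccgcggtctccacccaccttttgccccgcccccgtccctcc
Cebpb, a partner of ATF4, fell from 189 ± 6.67 to 80.1 ± 3.997 TPM.

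All 37 cytosolic ribosomal protein genes fell (36 after median-of-ratios scaling), by a median of -0.93 and over a narrow range from -1.24 to -0.35, and 29 remained above PBS. Rps6 measured 1628, 1480.4, 1468 and 1522 TPM with cisplatin and 725, 783, 819.7 and 761 TPM with NR, against 507 to 618 TPM with PBS. Of 28 ribosome biogenesis genes 26 fell, including the nucleolar genes Nop56 (90.5 ± 12.6 to 30.9 ± 3.7 TPM) and Npm1 (245 ± 21.9 to 129 ± 7.21 TPM). Proteasome subunits fell in 27 of 31 cases by a smaller amount (median -0.50, and 18 of 31 after median-of-ratios scaling). Psmd8 went from 236 ± 16.1 to 141 ± 11.9 TPM. Of 33 autophagy and lysosome genes 12 fell, 6 rose and 15 were not called (8 fell and 8 rose with median-of-ratios scaling). These shares were near the 32.2% and 14.4% of all genes, and the median of -0.18 was near the -0.20 of all genes.

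Of 19 clock genes 8 fell, 5 rose and 6 were not called (7 fell and 7 rose with median-of-ratios scaling), with a median of -0.27 beside -0.20 for all genes; the naming rule, which takes the smallest adjusted p and the minority direction, picked the 5 that rose and Nfil3. Dbp, a factor that transmits the clock to its target genes, measured 20.2, 22.5, 17.7 and 24.2 TPM with cisplatin and 85.4, 152, 137 and 123 TPM with NR (log2 change 2.48, SE 0.19, adjusted p = 1.19e-08). Its relatives Hlf and Tef rose from 3.005 ± 0.96 and 42.3 ± 8.32 to 18.1 ± 3.999 and 90.7 ± 8.65 TPM, and their repressor Nfil3, which binds the same sites, fell from 13.6 ± 2.62 to 4.42 ± 1.41 TPM. Nr1d2 (REV-ERB beta) and Per3 rose from 12.8 ± 1.15 and 4.12 ± 0.86 to 28.7 ± 1.52 and 9.48 ± 1.29 TPM. The annotated span of Per3 shares 41014 bases on the same strand with Camta1, so the split of reads is uncertain. Camta1 averaged 11.62 TPM with cisplatin and 5.54 TPM with NR. The sources used here do not give the hour of collection.

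Transcripts of other cells differed between the groups. In the podocyte and endothelial sums, cisplatin library 1 lay nearer the NR libraries than the rest of its group. Of 14 podocyte genes 9 rose, of 15 endothelial genes 10 rose and 1 fell, and of 14 genes of stroma, pericytes and renin cells 11 rose and 1 fell. The summed podocyte markers ran from 145.5 to 292.9 TPM with cisplatin and from 238.2 to 300.7 TPM with NR, and those of endothelium from 132.5 to 232.7 and from 224.9 to 356 TPM; in both lists the highest cisplatin value was that of library 1. Plvap of fenestrated endothelium measured 21.7, 7.4, 5.69 and 6.72 TPM with cisplatin and 56.9, 74.5, 63.8 and 46.5 TPM with NR, without overlap, and the renin gene Ren1 61.4, 7.53, 5.82 and 6.95 and 53.9, 88.2, 99.7 and 66.3 TPM, with overlap. Cisplatin library 1 was highest in its group for both.

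Immune transcripts were few. Genes of dendritic cells and MHC class II rose in 4 of 8 cases, with H2-Aa at 14.8, 5.63, 4 and 3.75 TPM in the cisplatin and 38.2, 78.6, 56.9 and 48.9 TPM in the NR libraries. Of 17 macrophage genes 3 rose, 3 fell and 11 were not called. The share of rises was near the 14.4% of all genes and that of falls below the 32.2%. Csf1r, the receptor that keeps resident macrophages alive, rose from 5.15 ± 0.88 to 13.2 ± 1.66 TPM. The lysosomal gene Cd68 fell from 105 ± 11.3 to 34.1 ± 4.87 TPM and the endotoxin receptor gene Cd14 from 37.6 ± 4.9 to 19.3 ± 4.49 TPM. The fall of Cd14 was lost without cisplatin libraries 1 and 3 (adjusted p = 0.0632) and without NR libraries 3 and 4 (0.072). Of 13 neutrophil genes 4 passed the filter and 0 were called (limma; 2 fell with no filter), with summed levels of 6.32 to 24.6 TPM with cisplatin and 8.23 to 11.7 TPM with NR, and Mpo at 0 in all 8 libraries. The markers of T and NK cells summed to at most 21.9 TPM and those of B cells to at most 16.9 TPM in any library.

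Of 9 red blood cell genes 5 rose, 1 fell and 3 were not called; the 5 were Alas2 and 4 globin genes, which stood among the largest rises. Hbb-bs, the adult beta globin gene, measured 2.72, 1.62, 11.1 and 1.25 TPM with cisplatin and 420.5, 926, 751 and 622 TPM with NR (log2 change 7.34, SE 0.43, adjusted p = 5.74e-09), and Alas2, the haem synthesis gene of red cell precursors, rose from 0.2 ± 0.26 to 5.16 ± 2.44 TPM. The list summed to 50.6 to 72.5 TPM with cisplatin and 1301 to 2636 TPM with NR, and PBS libraries held 1904 to 3854 TPM. The globin copies are nearly identical, so the share of each is uncertain. The defining adipocyte genes Adipoq, Plin1, Cidec and Fabp4 summed to 274.5, 135.4, 196.8 and 138 TPM in cisplatin libraries 1 to 4 and to 23.2, 71.1, 214.7 and 144 TPM in NR libraries 1 to 4. Within the cisplatin group Fabp4 was highest in library 1 (225.27 TPM), but Adipoq, Plin1 and Cidec were highest in library 3 (11.86, 9.44 and 34.15 TPM). Of 12 adipose genes 2 fell and 1 rose, the lipase gene Lpl (30.7 ± 2.55 to 189.7 ± 21 TPM). Without NR libraries 3 and 4 the falls numbered 7, and without library 3 alone 5. Adrenal markers summed to at most 8.06 TPM in these 2 groups.

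**Figure D5:**
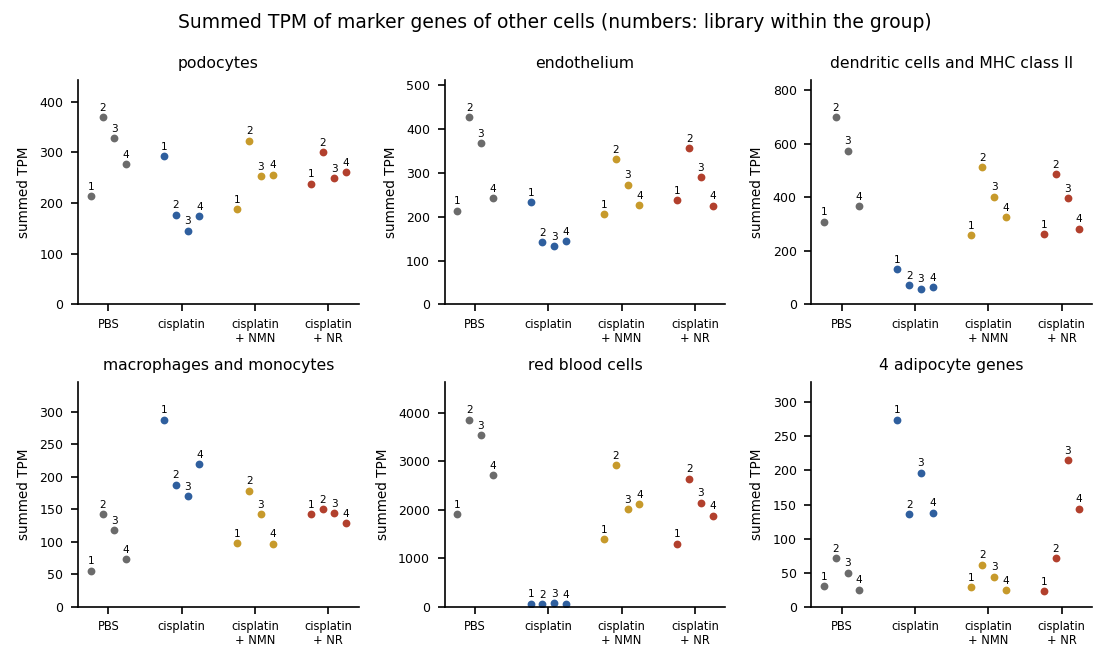
Summed TPM of marker lists of 5 other cell types and of 4 adipocyte genes in each library, numbered within its group (axes from 0). Cisplatin library 1 is the highest of its group for podocytes, endothelium, MHC class II, macrophages and the sum of the 4 adipocyte genes. Red blood cell transcripts sum to 50.6 to 72.5 TPM in the 4 cisplatin libraries.

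NR and NMN differ by a phosphate group, which NMN carries on the ribose of NR, and their libraries were compared in the same model, without known doses. Of 12960 genes 0 passed the test (limma, lowest adjusted p of 1), and 370 had an unadjusted p under 0.05, with 237 higher and 133 lower with NR. A model of only these 2 groups called 1 gene, Wfdc21, an acute phase gene (log2 difference 2.38, adjusted p = 0.0259). For 12071 of the 12960 genes the 95% interval of the difference stayed within 1 log2 unit of 0, with a median half-width of 0.38. These intervals are on log2(TPM + 1), which understates differences of low genes, so the count is no measure of their fold differences. The difference, NR minus NMN, was -0.13 for Slc34a1 (95% interval -0.35 to 0.10), 0.37 for Havcr1 (-0.22 to 0.95), 0.39 for Cdkn1a (-0.12 to 0.89) and 0.61 for Lcn2 (-0.04 to 1.26). For the NR kinase gene Nmrk1 it was -0.15 (-0.43 to 0.13), for Isg15 -0.15 (-0.65 to 0.36) and for Apaf1 -0.79 (-1.21 to -0.37), none of which passed after adjustment. Intervals that hold 0 leave differences of the size they span undetected, and they do not show that the precursors act alike.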

How the data were processed

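RNA was measured by sequencing in 16 whole mouse kidney samples, 4 per group. The deposited values are TPM per gene, to 2 decimals, and the submitters' processing notes name DESeq2 1.10.1, HTSeq 0.6.1, STAR 2.4.1d and Trim Galore with the builds GRCm38 and mm10; the sources used here do not give the gene lengths, annotation or strand setting. The table lists 23935 symbols, and the TPM of a library summed to between 860428 and 903678. Entries that share a symbol (94) were added together. The 12960 genes that reached 1 TPM in 4 or more of the 16 libraries were tested on log2(TPM + 1) with limma 3.58.1 in R 4.3.3 (group means of all 4 groups, 12 residual degrees of freedom, trend and robust estimation) and Benjamini-Hochberg adjustment; this scale understates changes of low genes. In data simulated for NR against cisplatin, 200 genes above about 5 TPM with cisplatin were changed. Of these, 35%, 86% and 99.5% were recovered at 1.5-, 2- and 4-fold. Lower genes were left unchanged there. The real comparison called 6044 genes, far more than 200, so these shares do not give its sensitivity. Genes named are the 12 largest rises and falls with groups apart and at least 5 TPM, up to 6 members of each list by adjusted p and those against its majority, the genes above both groups, and a fixed set of NAD, injury and sensor genes. The comparison and the 53 lists were chosen with earlier results of these data known. Alternatives were other scalings (median of ratios, mitochondrial mRNAs removed, quantile), other filters and pseudocounts, array weights, 2 groups only, a replicate block and libraries left out. Positions are from GENCODE M21 and promoters from RefSeq (GRCm38.p6), which matched 10031 tested genes. Some genes that the rule names are not reported here.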

Additional observations from a re-analysis of the deposited data

Results flagged for a closer look

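Among 374 groups of 4 libraries checked for the genes named in the text, 32 held a library whose gap to its nearest neighbour took up more of the group's range than Dixon's 95% critical value allows; chance alone gives about 1 in 20 such groups. Cisplatin library 1 stood apart as the highest of its group for Slc2a1 (71.49 TPM, next 60.06), Ugt2b34 (9.52 TPM, next 4.06), Krt20 (1005.63 TPM, next 812.85), Mdm2 (215.57 TPM, next 168.45), Bcl2l1 (218.11 TPM, next 195.68), Polk (12.57 TPM, next 10.1), Tnfaip3 (14.81 TPM, next 10.33), Timp3 (136.82 TPM, next 90.17), Klf6 (65.55 TPM, next 51.27), Plvap (21.66 TPM, next 7.4), Ren1 (61.44 TPM, next 7.53) and H2-Aa (14.81 TPM, next 5.63). Cisplatin library 2 stood apart as the highest of its group for Kynu (0.16 TPM, next 0). Cisplatin library 2 stood apart as the lowest of its group for Slc22a8 (5.24 TPM, next 6.49). Cisplatin library 3 stood apart as the highest of its group for Hbb-bs (11.1 TPM, next 2.72). Cisplatin library 3 stood apart as the lowest of its group for Ifit3 (28.6 TPM, next 44.06), Shmt2 (33.05 TPM, next 38.99) and Tef (29.84 TPM, next 45.41). Cisplatin library 4 stood apart as the highest of its group for Pvalb (2.11 TPM, next 0). Cisplatin library 4 stood apart as the lowest of its group for Slc5a2 (26.13 TPM, next 30.75) and Bax (333.08 TPM, next 361.38). NR library 1 stood apart as the highest of its group for Lgals3 (226.33 TPM, next 166.07). NR library 1 stood apart as the lowest of its group for Fbp1 (485.72 TPM, next 573.97), Ccl28 (1.2 TPM, next 2.24) and Calcb (1.02 TPM, next 2.2). NR library 2 stood apart as the highest of its group for Cd38 (3.02 TPM, next 1.36) and Lcn2 (495.87 TPM, next 410.81). NR library 2 stood apart as the lowest of its group for Dusp5 (7.85 TPM, next 11.87). NR library 4 stood apart as the highest of its group for Sh2d5 (3.39 TPM, next 0.79), Parp1 (10.93 TPM, next 9.2) and Acsm2 (1529.68 TPM, next 922.3). NR library 4 stood apart as the lowest of its group for Atp6v1b1 (51.39 TPM, next 61.52).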

How the results depend on the processing

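Against cisplatin, the numbers of genes that rose and fell stayed within 1.5 times of 1870 and 4174 under every alternative run, from 1395 to 2752 and from 2837 to 4321, and from 1637 to 1891 and 3554 to 4210 with single libraries left out. Of 181 called genes named in the text, 169 kept their call and direction under every alternative, 12 lost the call under at least 1, and 0 reversed. NR against NMN gave 1 higher gene with only these 2 groups in the model and 0 otherwise. Against PBS, 1139 genes were higher and 157 lower. The lower count was 478 with median-of-ratios scaling, 294 with mitochondrial mRNAs removed and 515 with quantile normalization. Without NR libraries 3 and 4 the counts were 641 higher and 57 lower, and with single libraries left out 816 to 1142 higher and 56 to 165 lower (56 without NR library 1, 64 and 77 without PBS library 3 and 4, 103 without NR library 3). Genes above both cisplatin and PBS numbered 3 without NR libraries 3 and 4, and 6 to 9 with single NR libraries left out.

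A replicate block gave 1961 genes higher and 4223 lower against cisplatin, 283 lower against PBS and 13 above both. No label says that a replicate number marks a shared animal, litter or batch. Same-numbered NR and cisplatin libraries correlated in their deviations from the group means at -0.038 to 0.075, so this comparison was treated as unpaired. With PBS these values were 0.049 to 0.27 and with NMN 0.07 to 0.225, and each NR library correlated best with its own number among the NMN libraries, a hint from the data and not from the design.

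Signs turned in 4 genes that were not called. Umod went to -0.18 with array weights, -0.48 without NR libraries 3 and 4, -0.61 without cisplatin libraries 1 and 3, -0.038 and -0.26 without NR library 3 or 4, and -0.16 and -0.23 without cisplatin library 1 or 3, in a range of -0.26 to 0.27 with single libraries left out. With median-of-ratios scaling, mitochondrial mRNAs removed and quantile normalization, Nampt went to 0.13, 0.12 and 0.16, Sirt1 to 0.095, 0.088 and 0.088, and Parp1 to 0.057, 0.046 and 0.054. Nampt went to 0.005 without cisplatin library 4, in a range of -0.19 to 0.005 with single libraries left out, and Sirt1 to 0.029 without NR libraries 3 and 4. The cause was not tested. TPM keeps no depth, so how far depth limits low genes is unknown.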
